A study of Mus musculus with 9 samples.

Results

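The 10 TNF superfamily ligands described here are Tnf, Ltb, Cd70, Tnfsf4, Tnfsf8, Tnfsf9, Tnfsf10, Tnfsf12, Tnfsf13 and Tnfsf13b. They were taken by name from the gene symbols of the count table, where all 10 of 10 were found among 55278 usable symbols, and all 10 passed the filter on low counts that left 15417 genes for testing. Gene expression was read by RNA-seq in 9 libraries made from sorted thymic dendritic cells of C57BL/6 mice aged 8 weeks, and the populations CD301b, SIRPa and XCR1 have 3 libraries each. No treatment or engineered allele is given for any of them, so as far as the labels say the populations differ by the sort alone, and the sources used here do not give its gates. The design text speaks of 3 mice. Whether a library holds cells of 1 animal or of several is not stated, so every p-value measures the spread between these libraries, which may be technical.

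Ligands of this family are mostly trimeric proteins made on the cell surface, some of which are cut loose, and each binds 1 or a few receptors of the TNF receptor superfamily. In the thymus, members of the family act between developing T cells, antigen-presenting cells and epithelium: lymphotoxin and its relatives help the medullary epithelium to mature, and the costimulatory members act on T cells that have met antigen. Among conventional dendritic cells, those that express XCR1 are type 1 cells (cDC1), and those that express SIRPa are type 2 cells (cDC2). CD301b, encoded by Mgl2, is a lectin found on some of the type 2 cells.

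Libraries held 20246092 to 25438864 counts. The summed level of 10 cDC1 markers was 1888 to 2302 counts per 1000000 (CPM) of the scaled library in CD301b, 1637 to 1938 in SIRPa and 8955 to 10744 in XCR1 libraries. That of 9 cDC2 markers was 2082 to 2542 CPM in CD301b, 1216 to 1303 CPM in SIRPa and 44.7 to 60.4 CPM in XCR1 libraries. So cDC1 markers were highest and cDC2 markers lowest in XCR1 libraries. In SIRPa libraries the cDC1 sum lay above the cDC2 sum. The lists include Xcr1, Sirpa and Mgl2, for whose proteins the populations are named, so the sums are not independent of the sort. XCR1 replicate 3 stood apart from the other XCR1 libraries in the markers of other cells. Its 19 thymocyte and T cell markers summed to 880 CPM, against 250 and 193 CPM in XCR1 replicates 1 and 2, and its 9 granulocyte markers summed to 37.5 CPM, against 0.0499 and 0.665 CPM in replicates 1 and 2. Calls of the 10 ligands that changed without it are given both ways. For the receptors and other gene lists, the fits without it are not reported here.

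Most of the ligands were lowest in XCR1 cells. Tnfsf4 and Tnfsf8, the OX40 and CD30 ligands, had no count in any XCR1 library and were present in every CD301b and SIRPa library. Ltb, Tnfsf10 and Tnfsf12 were several-fold higher in both CD301b and SIRPa than in XCR1 cells, and Tnfsf13b was 2.40-fold higher in SIRPa than in XCR1 cells. Tnfsf9, the 4-1BB ligand, had another pattern, with its highest level in CD301b cells. Tnf, Cd70 and Tnfsf13 did not pass the test in any comparison.

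**Figure D1:**
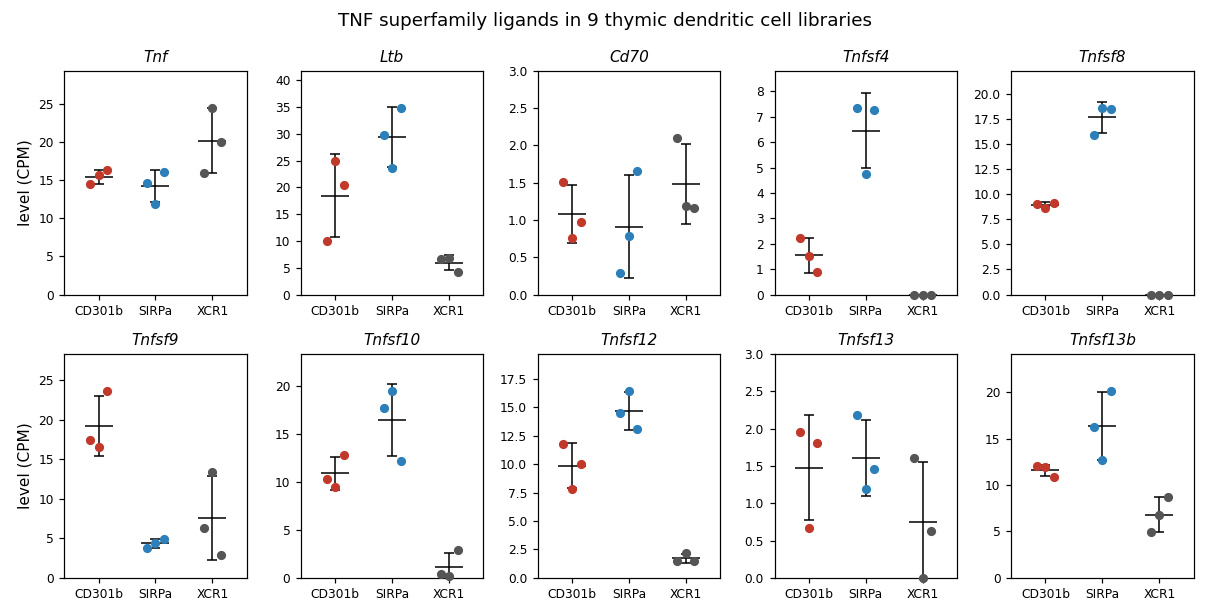
Level of each of the 10 ligands (vertical axis, CPM scaled by library) in the 9 libraries, with CD301b at the left, SIRPa in the middle and XCR1 at the right of each panel. Points are libraries, the long tick is the mean of 3 libraries and the bar is 1 SD. Tnfsf4 and Tnfsf8 lie at 0 in all 3 XCR1 libraries, and for Tnfsf9 the CD301b points, 16.6 to 23.6 CPM, lie above all others.

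In numbers, CD301b against XCR1 gave 6 of 10 ligands higher and 0 lower, where 22.6% of all tested genes passed the test in either direction. SIRPa against XCR1 likewise gave 6 higher and 0 lower, beside 24.7% of all genes. The 0 lower came from edgeR's quasi-likelihood test at an adjusted p of 0.05, and the number lower was also 0 at an unadjusted p of 0.05 and with DESeq2. CD301b against SIRPa gave 1 of 10 higher, Tnfsf9, and 0 lower, beside 4.28% of all genes. At an unadjusted p of 0.05, 3 ligands were lower in that comparison (Ltb, Tnfsf4 and Tnfsf8), and DESeq2 called 2 of them lower. The median log2 fold change of the 10 ligands was -0.53 in CD301b against SIRPa, 1.49 in CD301b against XCR1 and 1.78 in SIRPa against XCR1. Over all tested genes it was 0.01, 0.05 and 0.06 in the same order. Tnfsf4 and Tnfsf8 had the largest folds against XCR1, also with XCR1 set at a floor of 3 counts over the group. That floor therefore could not move the median. The comparisons with XCR1 share the XCR1 libraries, so their results are not independent of each other. The measurements are of bulk RNA, in which fewer cells of a kind that makes a ligand and less of its RNA per cell cannot be told apart.

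**Figure D2:**
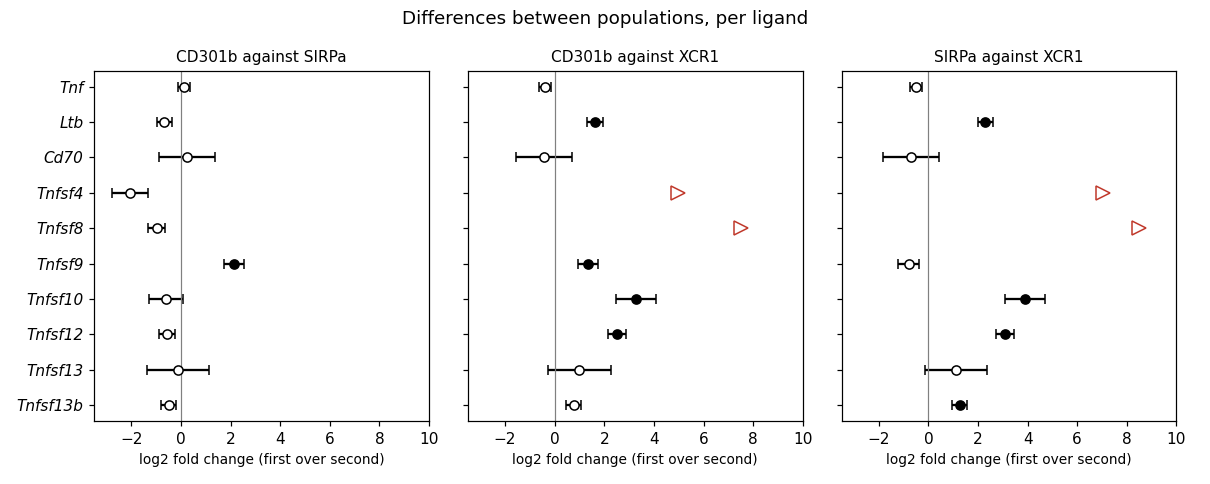
Log2 fold change of each ligand in the 3 comparisons, first population over second, from the edgeR fit over all genes. Circles with bars give the fold change and its standard error, filled where the adjusted p was under 0.05, and open triangles mark the lowest fold that a floor of 3 counts over the XCR1 group allows (Tnfsf4 and Tnfsf8, which were at 0 there and passed the test). The filled circles and triangles of both comparisons with XCR1 lie right of 0, and Tnfsf9 is the only filled circle in CD301b against SIRPa.

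Ltb encodes lymphotoxin beta, the chain that anchors lymphotoxin to the membrane and lets it bind the lymphotoxin beta receptor. With libraries in the order of their replicate numbers (1, 3 and 4 for CD301b, 1 to 3 for the others), Ltb stood at 9.92, 24.9 and 20.5 CPM in CD301b, at 29.7, 23.6 and 34.8 CPM in SIRPa and at 6.68, 6.84 and 4.29 CPM in XCR1 libraries. Every CD301b and SIRPa library lay above every XCR1 library, while CD301b and SIRPa overlapped. CD301b replicate 1, lowest of its group in Ltb, was also lowest in summed thymocyte and T cell markers (292 CPM, against 536 and 710). SIRPa replicates 1 to 3 had 540, 408 and 727 CPM of those markers, the same order as their Ltb levels. In XCR1, replicate 3 was highest in those markers (880 CPM) and lowest in Ltb. The part of such cells in the Ltb levels was not tested. Ltb was 3.10-fold higher in CD301b than in XCR1 cells (log2 fold change 1.63 ± 0.31 SE, edgeR adjusted p = 0.000484). In SIRPa cells it was 4.94-fold higher than in XCR1 cells (2.30 ± 0.32, edgeR adjusted p = 1.02e-05). The difference of CD301b from SIRPa, -0.67 ± 0.30 on the log2 scale, did not pass (edgeR adjusted p = 0.296). Its partner chain Lta, which is not among the 10, averaged 0.914 ± 0.523 CPM in CD301b cells, 1.73 ± 0.777 CPM in SIRPa cells and 1.44 ± 0.945 CPM in XCR1 cells (SD, n = 3 libraries in each population here and below), and did not pass the test in any comparison.

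Tnf, the founding inflammatory cytokine of the family, lies next to Ltb on chromosome 17, and no comparison of it passed the test. It stood at 14.5, 15.7 and 16.3 CPM in CD301b, at 14.7, 11.9 and 16.1 CPM in SIRPa and at 16.0, 24.5 and 20.1 CPM in XCR1 libraries. The 3 groups overlapped, with XCR1 highest on average at 20.2 ± 4.25 CPM. The log2 fold changes were 0.13 ± 0.25 in CD301b against SIRPa, -0.38 ± 0.25 in CD301b against XCR1 and -0.50 ± 0.25 in SIRPa against XCR1, with edgeR adjusted p-values of 0.930, 0.319 and 0.160.

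In the mouse genome build GRCm38, Ltb runs from 35194439 to 35196320 on the plus strand of chromosome 17 and Tnf from 35199381 to 35202007 on the minus strand. Windows of 300 bases at the RefSeq start sites (GRCm38.p6; 250 bases before the start and 50 from it on) are shown for this neighbouring pair with unlike levels, chr17:35194257-35194556 on the plus strand for Ltb and chr17:35201958-35202257 on the minus strand for Tnf. Capitals in the Ltb window mark a PU.1 core (GAGGAAG, bases -101 to -95 from the start) and a kappaB consensus read on the opposite strand (bases -87 to -78), which do not overlap. Capitals in the Tnf window mark a PU.1 core on the opposite strand (bases -118 to -112).
Ltb: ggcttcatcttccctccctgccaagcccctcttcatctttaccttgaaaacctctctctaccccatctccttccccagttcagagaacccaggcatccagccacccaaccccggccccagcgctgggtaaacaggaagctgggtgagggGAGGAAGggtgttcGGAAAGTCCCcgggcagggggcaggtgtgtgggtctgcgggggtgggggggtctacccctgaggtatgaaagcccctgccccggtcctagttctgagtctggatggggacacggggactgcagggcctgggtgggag
Tnf: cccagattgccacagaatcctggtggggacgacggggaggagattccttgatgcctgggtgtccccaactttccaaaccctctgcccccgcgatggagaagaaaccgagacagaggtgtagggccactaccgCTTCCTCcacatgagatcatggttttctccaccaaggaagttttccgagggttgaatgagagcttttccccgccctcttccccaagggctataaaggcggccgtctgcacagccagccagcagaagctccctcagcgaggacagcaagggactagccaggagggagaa

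Both strands were searched for 5 motifs. Of 32851 promoter windows of the same length in the table, 13.6% held the PU.1 core and 8.46% the kappaB consensus. The other motifs were an interferon-stimulated response element core (GAAANNGAAA, in 3.44% of windows), an AP-1 motif (TGANTCA, 7.81%) and a STAT6 motif (TTCNNNNGAA, 6.95%). A match describes letters and is not evidence of binding, and these data hold no measurement of binding.

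Tnfsf8 encodes CD30 ligand, which acts on activated lymphocytes that carry CD30. It stood at 9.08, 8.68 and 9.10 CPM in CD301b, at 15.9, 18.6 and 18.5 CPM in SIRPa and at 0, 0 and 0 CPM in XCR1 libraries. The groups did not overlap, and the counts behind these levels were 186 to 228 in CD301b and 335 to 424 in SIRPa libraries. With a floor of 3 counts over the XCR1 group, which corresponds to 0.0485 CPM, Tnfsf8 was at least 185-fold higher in CD301b than in XCR1 cells (edgeR adjusted p = 1.16e-09). In SIRPa cells it was at least 364-fold higher than in XCR1 cells (edgeR adjusted p = 2.51e-10). The log2 fold change of CD301b against SIRPa was -0.98 ± 0.33. This did not pass in the fit over 9 libraries (edgeR adjusted p = 0.123), but passed in a fit of the 6 libraries alone (edgeR adjusted p = 0.0265) and with DESeq2 (adjusted p = 0.0252).

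Tnfsf4, the OX40 ligand, supports the survival of T cells that carry OX40. It stood at 2.23, 1.51 and 0.881 CPM in CD301b, at 7.34, 4.74 and 7.26 CPM in SIRPa and at 0, 0 and 0 CPM in XCR1 libraries, again without overlap between the groups. It was at least 31.7-fold higher in CD301b than in XCR1 cells (edgeR adjusted p = 8.80e-05). In SIRPa cells it was at least 133-fold higher than in XCR1 cells (edgeR adjusted p = 5.96e-06). CD301b against SIRPa gave -2.06 ± 0.74 on the log2 scale, which did not pass in the fit over 9 libraries (edgeR adjusted p = 0.159). It passed in the fit of the 6 libraries (edgeR adjusted p = 0.0323) and with DESeq2 (log2 fold change -2.08, adjusted p = 0.0215).

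Few of the tested genes combined a complete lack of counts in XCR1 libraries with a mean of at least 5 CPM elsewhere. Of 15417 tested genes, 369 were at 0 in all 3 XCR1 libraries. Only 32 genes (0.208% of those tested) were at 0 in XCR1 and averaged at least 5 CPM in SIRPa cells, and Tnfsf4 and Tnfsf8 are both among them. Against CD301b the same count was 37 (0.240%), with Tnfsf8 among them.

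The Tnfsf8 start window, chr4:63861235-63861534 on the minus strand of GRCm38.p6, is shown because Tnfsf8 had the highest level of the ligands at 0 in XCR1 cells. It held none of the 5 motifs, which says only that these letters are not in this window.
Tnfsf8: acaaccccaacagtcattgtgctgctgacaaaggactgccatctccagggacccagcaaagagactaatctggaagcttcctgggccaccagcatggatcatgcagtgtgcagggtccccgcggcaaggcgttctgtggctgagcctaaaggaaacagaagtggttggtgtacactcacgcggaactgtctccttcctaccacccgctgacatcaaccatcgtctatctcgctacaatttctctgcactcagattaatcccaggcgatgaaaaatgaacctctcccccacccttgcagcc

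Tnfsf9, the ligand of the T cell costimulatory receptor 4-1BB, lies from 57105325 to 57107757 on the plus strand of chromosome 17. Its levels were 17.4, 16.6 and 23.6 CPM in CD301b, 3.74, 4.35 and 4.95 CPM in SIRPa and 6.34, 13.4 and 2.94 CPM in XCR1 libraries. Every CD301b library lay above all 6 others, and XCR1 replicates spread so widely that 1 lay below all SIRPa libraries and the others above them. Tnfsf9 was 4.41-fold higher in CD301b than in SIRPa cells (log2 fold change 2.14 ± 0.42, edgeR adjusted p = 0.00383), and this passed in all 9 fits that left out a library, with log2 fold changes of 1.96 to 2.23. Against XCR1 the difference was 2.53-fold (1.34 ± 0.41, edgeR adjusted p = 0.0211). It did not pass without CD301b replicate 4 (1.15, edgeR adjusted p = 0.0869), without XCR1 replicate 1 (1.23, 0.0796) or without XCR1 replicate 3 (0.96, 0.0766), and was 2.05 without XCR1 replicate 2. SIRPa against XCR1 gave -0.80 ± 0.41, which did not pass (edgeR adjusted p = 0.187), but passed without XCR1 replicate 3 (-1.18, edgeR adjusted p = 0.0206) and was -0.09 without XCR1 replicate 2 (edgeR adjusted p = 0.922).

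By their sum, immediate early and dissociation genes were also highest in CD301b libraries. Their 15 members summed to 2227 to 2925 CPM in CD301b, 1687 to 1819 CPM in SIRPa and 1713 to 1861 CPM in XCR1 libraries. SIRPa and XCR1 libraries overlapped. Singly, 4 were higher and 11 did not pass in CD301b against SIRPa, where 4.28% of all tested genes passed. In CD301b against XCR1, 7 were higher, 1 lower and 7 did not pass, beside 22.6% of all tested genes. The part of these genes in the Tnfsf9 difference was not tested. Of the 1290 exonic bases of Tnfsf9, 192 (14.9%) lie opposite the predicted gene Gm11110, and the strand setting of the counting is not given, so reads there may belong to either. Gm11110 itself averaged 3.07 ± 0.826 CPM in CD301b cells, 2.31 ± 0.812 CPM in SIRPa cells and 1.23 ± 0.800 CPM in XCR1 cells.

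Cd70, whose receptor CD27 is present on thymocytes, had few counts. Its levels were 1.51, 0.755 and 0.979 CPM in CD301b, 0.284, 0.791 and 1.65 CPM in SIRPa and 2.10, 1.19 and 1.16 CPM in XCR1 libraries, from 6 to 42 counts each. The groups overlapped, and the log2 fold changes were 0.25 ± 1.13, -0.45 ± 1.13 and -0.70 ± 1.13 in CD301b against SIRPa, CD301b against XCR1 and SIRPa against XCR1 (edgeR adjusted p = 0.974, 0.849 and 0.746).

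Tnfsf10 encodes TRAIL, which induces apoptosis through its death receptor. It stood at 10.3, 9.47 and 12.8 CPM in CD301b, at 17.7, 19.4 and 12.2 CPM in SIRPa and at 0.349, 0.143 and 2.85 CPM in XCR1 libraries. All CD301b and SIRPa libraries lay above all XCR1 libraries, where replicate 3 held 59 counts and replicates 1 and 2 held 7 and 3. Tnfsf10 was 9.71-fold higher in CD301b than in XCR1 cells (log2 fold change 3.28 ± 0.79, edgeR adjusted p = 0.0131), and 14.7-fold higher in SIRPa than in XCR1 cells (3.88 ± 0.81, edgeR adjusted p = 0.00521). Without XCR1 replicate 3 these log2 fold changes were 5.44 and 6.04 (edgeR adjusted p = 6.70e-08 and 1.66e-08). That library also had the highest summed thymocyte and granulocyte markers of the XCR1 libraries, and their part in its Tnfsf10 level was not tested. The CD301b difference did not pass without CD301b replicate 4 (3.12, edgeR adjusted p = 0.0572). CD301b and SIRPa cells overlapped, and their difference of -0.60 ± 0.70 did not pass (edgeR adjusted p = 0.840).

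Tnfsf12 encodes TWEAK, which signals through Fn14 on epithelial and stromal cells. It stood at 11.8, 7.80 and 9.98 CPM in CD301b, at 14.5, 16.4 and 13.1 CPM in SIRPa and at 1.5, 2.19 and 1.45 CPM in XCR1 libraries. The 3 groups did not overlap. Tnfsf12 was 5.75-fold higher in CD301b than in XCR1 cells (log2 fold change 2.52 ± 0.36, edgeR adjusted p = 1.79e-05), and 8.55-fold higher in SIRPa than in XCR1 cells (3.10 ± 0.37, edgeR adjusted p = 1.48e-06). CD301b against SIRPa gave -0.57 ± 0.33, which did not pass (edgeR adjusted p = 0.491).

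Tnfsf13, or APRIL, is a survival factor for plasma cells, and its gene lies just downstream of Tnfsf12. Tnfsf12 runs from 69686250 to 69695849 and Tnfsf13 from 69682846 to 69685784, both on the minus strand of chromosome 11. A read-through gene, Tnfsfm13, spans both and shares 731 of the 1515 exonic bases of Tnfsf12 (48.3%) and 983 of the 1637 of Tnfsf13 (60%). How reads in shared exons were counted is not given, so the levels of both genes are uncertain. Tnfsf13 stood at 1.95, 0.671 and 1.81 CPM in CD301b, at 2.18, 1.19 and 1.46 CPM in SIRPa and at 1.60, 0 and 0.627 CPM in XCR1 libraries. The groups overlapped, and no comparison passed: the log2 fold changes were -0.12 ± 1.24, 0.99 ± 1.26 and 1.11 ± 1.26 in CD301b against SIRPa, CD301b against XCR1 and SIRPa against XCR1 (edgeR adjusted p = 0.992, 0.667 and 0.618). Without XCR1 replicate 1 the log2 fold changes against XCR1 were 2.22 for CD301b and 2.34 for SIRPa, and without XCR1 replicate 2 they were 0.41 and 0.53, none of which passed.

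Tnfsf13b encodes BAFF, a survival factor for B cells. It stood at 12.0, 11.9 and 10.9 CPM in CD301b, at 16.3, 12.7 and 20.1 CPM in SIRPa and at 4.94, 6.79 and 8.73 CPM in XCR1 libraries. The groups did not overlap, with SIRPa highest and XCR1 lowest. SIRPa against XCR1 passed, at 2.40-fold (log2 fold change 1.26 ± 0.31, edgeR adjusted p = 0.00398). CD301b against XCR1, 0.76 ± 0.31, did not pass (edgeR adjusted p = 0.0806), and it passed without XCR1 replicate 3 (0.98, edgeR adjusted p = 0.0446). CD301b against SIRPa, -0.50 ± 0.30, did not pass either (edgeR adjusted p = 0.521).

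RefSeq lists 2 start sites for Tnfsf13b, whose windows overlap. The window of the downstream start, chr8:10006383-10006682 on the plus strand of GRCm38.p6, is shown because it held more kinds of motif than any other ligand window. Capitals mark, in order, a STAT6 motif (bases -210 to -201), an AP-1 motif (-127 to -121) and the interferon-stimulated response element core (-16 to -7), none overlapping another. The upstream window held the same STAT6 and AP-1 letters and not the third motif. Of the other windows, Tnfsf13 held an AP-1 motif (-133 to -127) and Tnfsf10 held none of the 5.
Tnfsf13b: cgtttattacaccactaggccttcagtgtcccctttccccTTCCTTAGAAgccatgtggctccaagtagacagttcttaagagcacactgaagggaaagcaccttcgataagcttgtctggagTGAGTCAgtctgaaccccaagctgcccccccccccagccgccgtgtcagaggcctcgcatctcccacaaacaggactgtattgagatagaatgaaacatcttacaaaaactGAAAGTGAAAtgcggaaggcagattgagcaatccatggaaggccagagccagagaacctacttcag

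Summed levels of markers of several other cell types were, by their medians, lowest in XCR1 cells, like most of the ligands. The 11 macrophage markers summed to 1466 to 1696 CPM in CD301b, 2408 to 2803 CPM in SIRPa and 94.2 to 119 CPM in XCR1 libraries, an order that Ltb, Tnfsf4, Tnfsf8, Tnfsf10, Tnfsf12, Tnfsf13 and Tnfsf13b shared in their means. At least 10 of the 11 had a count in every library. Against XCR1, 10 of the 11 were higher in CD301b and 10 in SIRPa. In CD301b against SIRPa, 1 was higher, 1 lower and 9 did not pass, so that part of the order holds for the sum. The complement gene C1qa, a macrophage marker, averaged 401 ± 20.7 CPM in CD301b cells, 704 ± 34.9 CPM in SIRPa cells and 4.0 ± 5.15 in XCR1 cells. The 9 monocyte markers summed to 1325 to 1513, 1399 to 1475 and 115 to 155 CPM in CD301b, SIRPa and XCR1 libraries, and the 9 plasmacytoid dendritic cell markers to 551 to 681, 412 to 441 and 124 to 155 CPM. Of these 9 plasmacytoid markers, 1 was higher and 8 did not pass in CD301b against SIRPa, with a median log2 fold change of -0.25. The 10 NK cell and innate lymphoid cell markers summed to 124 to 154, 143 to 157 and 68.6 to 94.4 CPM in CD301b, SIRPa and XCR1 libraries. Of the 8 tested, 1 was higher and 1 lower in each comparison with XCR1, so the list did not move as a whole. The 9 granulocyte markers summed to 23.3 to 34.5, 47.8 to 94.6 and 0.0499 to 37.5 CPM. Of the 5 tested, 1 was higher and 4 did not pass in each comparison with XCR1. In CD301b replicate 4 only 1 of the 9 had a count, so its sum is that of 1 gene. The summed level of the 10 thymic epithelium markers went the other way, at 220 to 261, 267 to 271 and 451 to 547 CPM. Singly, 3 of them were higher and 1 lower in CD301b than in XCR1 cells, and the same numbers held for SIRPa. The part of such cells in the ligand levels was not tested. Thymocyte and T cell markers overlapped between the populations, at 292 to 710, 408 to 727 and 193 to 880 CPM in CD301b, SIRPa and XCR1 libraries. The 10 B cell markers summed to 12.5 to 22.6, 22.0 to 43.1 and 13.0 to 25.8 CPM. Of the 8 tested, 2 were lower in CD301b than in SIRPa and 3 higher in SIRPa than in XCR1 cells. Ms4a1, which encodes CD20, had no count in CD301b libraries and averaged 5.76 ± 2.26 CPM in SIRPa and 4.80 ± 2.62 CPM in XCR1 cells.

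To set ligands beside each other, levels were divided by exon length, in CPM per kb. The places of Tnfsf12 and Tnfsf13 are uncertain, since both share exonic bases with Tnfsfm13 and the counting of shared reads is not given. In CD301b cells the order began with Tnfsf9 at 14.9, Ltb at 12.2 and Tnf at 9.46 CPM per kb, neighbours whose library ranges overlapped, followed without overlap by Tnfsf12 at 6.51. In SIRPa cells Ltb came first at 19.4 CPM per kb and did not overlap Tnfsf12 at 9.68, which overlapped Tnf at 8.67. Tnfsf8 at 4.64 followed apart from both, and then Tnfsf4 at 3.50, Tnfsf9 at 3.37, Tnfsf10 at 3.12 and Tnfsf13b at 2.38 CPM per kb, each overlapping its neighbour. In XCR1 cells Tnf came first at 12.3 CPM per kb, overlapping Tnfsf9 at 5.86, which overlapped Ltb at 3.92. Cd70 at 1.76 CPM per kb stood apart below these, ahead of Tnfsf12 at 1.13 and Tnfsf13b at 0.993. So Tnf led the ligands in XCR1 cells although its own level did not pass the test between populations.

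**Figure D3:**
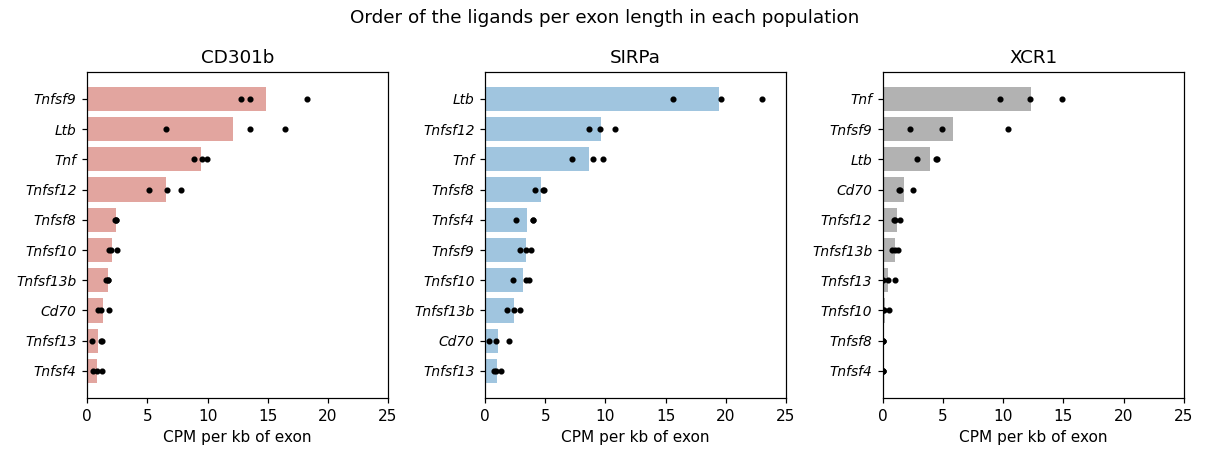
Level of the 10 ligands divided by exon length (horizontal axis, CPM per kb of exon), ordered from high to low within CD301b, SIRPa and XCR1. Bars are means of 3 libraries and points are the libraries. Tnfsf9 leads in CD301b at 14.9, Ltb in SIRPa at 19.4 and Tnf in XCR1 at 12.3 CPM per kb.

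The receptors of these ligands were measured in the same cells. Tnfrsf1b, the second TNF receptor, passed in all 3 comparisons: it stood at 250, 212 and 208 CPM in CD301b, at 400, 349 and 321 CPM in SIRPa and at 117, 119 and 126 CPM in XCR1 libraries. The groups did not overlap. Its log2 fold change was -0.68 ± 0.11 in CD301b against SIRPa (edgeR adjusted p = 0.000663), 0.89 ± 0.11 in CD301b against XCR1 (edgeR adjusted p = 2.97e-06) and 1.57 ± 0.11 in SIRPa against XCR1 (edgeR adjusted p = 8.19e-10). Tnfrsf1a, the death-domain receptor of the same ligand, averaged 53.3 ± 8.17, 41.4 ± 5.45 and 47.3 ± 1.33 CPM in CD301b, SIRPa and XCR1 cells and did not pass in any comparison. So receptor 2 of TNF differed between populations whose Tnf levels overlapped.

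Tnfrsf9, the 4-1BB receptor, stood at 19.8, 15.4 and 15.2 CPM in CD301b, at 22.3, 21.5 and 20.7 CPM in SIRPa and at 5.79, 9.03 and 7.62 CPM in XCR1 libraries. Both other populations lay above XCR1 without overlap, by 1.17 ± 0.26 on the log2 scale for CD301b (edgeR adjusted p = 0.00195) and 1.52 ± 0.26 for SIRPa (edgeR adjusted p = 0.000139). CD301b against SIRPa gave -0.35 ± 0.25 for the receptor and did not pass (edgeR adjusted p = 0.627), whereas its ligand Tnfsf9 was higher in CD301b cells. Tnfrsf13b encodes TACI, which binds both APRIL and BAFF. It stood at 27.5, 34.7 and 28.8 CPM in CD301b, at 22.6, 18.3 and 21 CPM in SIRPa and at 12.0, 5.08 and 13.3 CPM in XCR1 libraries. It was higher in CD301b than in XCR1 cells by 1.59 ± 0.29 on the log2 scale (edgeR adjusted p = 0.000256) and in SIRPa than in XCR1 cells by 1.03 ± 0.28 (edgeR adjusted p = 0.00964). The difference of CD301b from SIRPa, 0.56 ± 0.28, did not pass (edgeR adjusted p = 0.380).

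The remaining receptors of the 10 ligands did not pass. Ltbr, the lymphotoxin beta receptor, averaged 33.4 ± 9.04 CPM in CD301b, 31.5 ± 6.14 CPM in SIRPa and 24.8 ± 4.16 CPM in XCR1 cells. Tnfrsf4, which encodes OX40, averaged 22.0 ± 1.24, 27.2 ± 5.80 and 20.1 ± 3.98 CPM in the same order, so it was present in XCR1 cells, where its ligand gene had no count. Cd27 averaged 6.24 ± 1.32, 6.11 ± 2.31 and 4.87 ± 2.72 CPM. The TRAIL receptor gene Tnfrsf10b averaged 2.40 ± 2.23, 3.70 ± 1.21 and 6.59 ± 2.35 CPM, and its log2 fold changes against XCR1 were -1.45 ± 0.64 for CD301b and -0.83 ± 0.63 for SIRPa (edgeR adjusted p = 0.116 and 0.404). Tnfrsf8 (CD30), Tnfrsf12a (Fn14) and Tnfrsf13c (the BAFF receptor) averaged 0.260 to 3.13 CPM in the populations. Tnfrsf17, the plasma cell receptor of APRIL, had 13 counts in all, every one of them in SIRPa libraries, and was not tested.

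**Figure D4:**
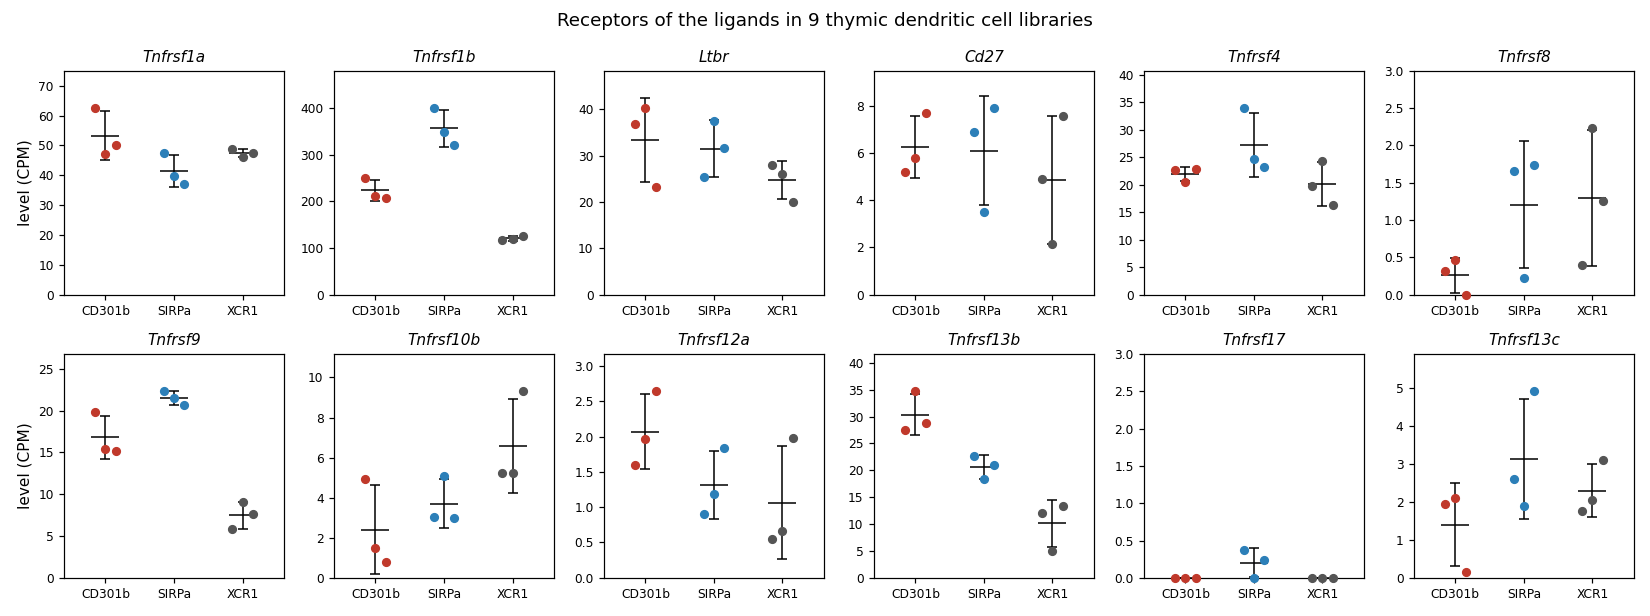
Level of the 12 receptors of the ligands (vertical axis, CPM scaled by library) in the 9 libraries, with CD301b at the left, SIRPa in the middle and XCR1 at the right of each panel. Points are libraries, the long tick is the mean of 3 libraries and the bar is 1 SD. The populations separate for Tnfrsf1b, between 117 and 400 CPM, while those of Tnfrsf1a overlap between neighbours.

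The other genes of the pathway were counted on lists. Of 8 further TNF superfamily ligands 6 were tested, and edgeR called 0 in each of the 3 comparisons. At an unadjusted p of 0.05 there was 1, lower in SIRPa than in XCR1, which DESeq2 also called at an adjusted p of 0.05. It is Eda, the ectodysplasin gene, chosen after its values were seen, at 0.0789 ± 0.137 CPM in SIRPa and 1.72 ± 0.644 in XCR1 cells. Cd40lg, which encodes the ligand of CD40, averaged 3.84 ± 3.05 CPM in CD301b, 3.57 ± 1.09 CPM in SIRPa and 1.62 ± 0.619 CPM in XCR1 cells and did not pass in any comparison. The median log2 fold changes of the 6 were -0.17 in CD301b against SIRPa, 0.40 in CD301b against XCR1 and 0.98 in SIRPa against XCR1.

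Of 24 receptor genes tested from a list of 28, 1 was higher and 4 lower in CD301b against SIRPa, 6 were higher and 1 lower in CD301b against XCR1, and 8 were higher and 0 lower in SIRPa against XCR1. Over all tested genes, 4.28%, 22.6% and 24.7% passed in these comparisons in either direction, so the counts against XCR1 are not far from those of genes in general. The 0 was also 0 at an unadjusted p of 0.05 and with DESeq2. Their median log2 fold changes were -0.19, 0.36 and 0.44, against 0.01, 0.05 and 0.06 over all genes. Ngfr, the neurotrophin receptor p75, was the receptor higher in CD301b than in SIRPa cells. It averaged 150 ± 22.4 CPM in CD301b, 35.8 ± 7.38 CPM in SIRPa and 0.145 ± 0.251 CPM in XCR1 cells (CD301b against SIRPa, log2 fold change 2.07 ± 0.31, edgeR adjusted p = 0.00351). Tnfrsf21, death receptor 6, averaged 51.5 ± 4.21, 50.6 ± 4.49 and 18.5 ± 4.24 CPM in CD301b, SIRPa and XCR1 cells, and both differences from XCR1 passed. Tnfrsf11b, the decoy receptor osteoprotegerin, had no count in CD301b libraries and averaged 2.83 ± 1.34 CPM in SIRPa and 1.26 ± 0.843 in XCR1 cells. Cd40 averaged 126 ± 6.96, 119 ± 8.64 and 125 ± 9.36 CPM and did not pass in any comparison.

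Of 29 adaptors and NF-kappaB kinases, all tested, 0 were higher and 1 lower in CD301b against SIRPa, 3 were higher and 4 lower in CD301b against XCR1, and 7 were higher and 2 lower in SIRPa against XCR1. These counts are near the shares of all tested genes that passed (4.28%, 22.6% and 24.7%) and say little about the list. At an unadjusted p of 0.05 and with DESeq2, 0 were higher in the first of these as well. The gene lower in CD301b than in SIRPa cells was Birc2, a ubiquitin ligase of the TNF receptor complex, at 111 ± 1.39 CPM in CD301b and 201 ± 13.1 in SIRPa cells (log2 fold change -0.86 ± 0.12, edgeR adjusted p = 9.82e-05). Tnfaip3, the inhibitor A20, averaged 325 ± 23.8, 366 ± 28.1 and 230 ± 2.45 CPM in CD301b, SIRPa and XCR1 cells, and was higher in both than in XCR1 (edgeR adjusted p = 0.000674 for CD301b and 2.36e-05 for SIRPa). Casp8, the apoptotic caspase of death receptors, averaged 107 ± 1.14, 93.0 ± 6.00 and 60.6 ± 6.82 CPM and likewise passed against XCR1 (edgeR adjusted p = 3.73e-05 and 0.000771). Chuk, the kinase IKK alpha, was lower in CD301b (44.9 ± 1.51 CPM) than in XCR1 cells (72.5 ± 4.44 CPM), by -0.69 ± 0.15 on the log2 scale (edgeR adjusted p = 0.00128). The list medians were -0.05, 0.04 and 0.10, near those of all genes.

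Of 19 genes for ligand shedding and mRNA decay, all tested, 1 was higher and 0 lower in CD301b against SIRPa, 7 were higher and 1 lower in CD301b against XCR1, and 6 were higher and 3 lower in SIRPa against XCR1, beside 4.28%, 22.6% and 24.7% of all tested genes in either direction. The number lower in CD301b against SIRPa was also 0 at an unadjusted p of 0.05 and with DESeq2. Adam17, the protease that releases TNF from the membrane, averaged 207 ± 25.9, 235 ± 35.5 and 110 ± 5.61 CPM in CD301b, SIRPa and XCR1 cells. It was higher than in XCR1 by 0.91 ± 0.12 on the log2 scale in CD301b (edgeR adjusted p = 9.68e-06) and by 1.09 ± 0.12 in SIRPa (edgeR adjusted p = 8.51e-07). Its relative Adam10 averaged 164 ± 5.35, 190 ± 4.33 and 90.3 ± 5.24 CPM and passed against XCR1 as well (edgeR adjusted p = 1.74e-06 and 8.43e-08). Zfp36l2, which binds AU-rich elements and promotes mRNA decay, passed in all 3 comparisons, at 202 ± 22.0 CPM in CD301b, 142 ± 14.0 CPM in SIRPa and 79.5 ± 16.2 CPM in XCR1 cells. The list medians were 0.06, 0.31 and 0.39, against 0.01, 0.05 and 0.06 over all genes.

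For each ligand with a mean of at least 5 CPM that passed in at least 1 comparison, the 2 genes whose log2 CPM went most alike over the 9 libraries were sought among 9472 genes. The 9 points are 3 populations, so Pearson's r mostly reflects the order of the population means, and it is given as a description. Tnfsf8 was most like Spon1 (r = 0.999), an extracellular matrix protein gene at 38.8 ± 2.04 CPM in CD301b, 76.0 ± 3.10 CPM in SIRPa and 0 CPM in XCR1 cells, and like the receptor kinase gene Axl (0.998), at 519 ± 27.7, 725 ± 65.8 and 35.7 ± 2.64 CPM. Tnfsf10 was most like Gria3 and Tlr7 (both 0.992). Tlr7, a sensor of single-stranded RNA, averaged 30.2 ± 1.04, 65.9 ± 3.23 and 1.38 ± 2.39 CPM. Tnfsf12 was most like Lpp (0.997) and Lamp2 (0.993), Tnfsf13b like Mocs1 (0.980) and Rac2 (0.976), and Ltb like Elk3 (0.969) and Arhgap27 (0.965). Tnfsf9 was most like Ptk2 (0.928), the focal adhesion kinase gene, at 56.1 ± 2.53 CPM in CD301b, 28.3 ± 4.22 CPM in SIRPa and 37.5 ± 5.89 CPM in XCR1 cells, and like Rab35 (0.926).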

How the data were processed

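Per the labels, thymi were digested with collagenase, populations were sorted by flow cytometry and stranded total RNA libraries were sequenced. The source name calls the cells thymocytes and the cell type calls them thymic dendritic cells; the second is used here. The authors used Trimmomatic, HISAT2 and featureCounts with build mm10, per the submitters' processing notes; the sources used here give neither the annotation nor the strand setting. The deposited count table holds raw counts per gene. The authors' deposited log2 CPM table served only as a check, with a largest difference of 0.13 from recomputed values where a ligand had at least 100 counts. Date-like symbols (24, with 0.125 to 0.187% of a library's counts) were left out.

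Genes were filtered with filterByExpr (minimum count 10). In edgeR 4.0.16 (R 4.3.3), TMM scaling and the two-sided quasi-likelihood test were run as 1 fit of the 9 libraries, and Benjamini-Hochberg adjustment covered 15417 genes, with a threshold of 0.05. The fit was tested on simulated data. The standard error of a log2 fold change was derived from the test, as its size divided by the square root of the quasi-likelihood F statistic. CPM are on TMM-scaled sizes. A group without counts was set to a floor of 3 counts over the group for "at least" folds, which cover counting error only; 3 counts in 1 library are 0.119 to 0.150 CPM. Gene positions and exon lengths come from GENCODE M21 (GRCm38), which holds 53616 of the 55302 symbols, and promoters from RefSeq, which matched 6 of the 10 ligands.

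The members, lists and tests were chosen with earlier results of these data known. All ligands and their receptors are named; from each list, the 3 genes that passed with the lowest adjusted p, where there were as many, and the gene of highest mean that did not pass were taken, of which the text gives some. Alternatives were DESeq2 1.42.0, RLE scaling, no filter, a minimum count of 50, the 6 libraries of a pair, the replicate number as a block and leaving out each library.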

Additional observations from a re-analysis of the deposited data

How the results depend on the processing

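Over the 10 ligands, 3 comparisons and all alternatives, 429 of 444 fold changes kept their direction and their side of the threshold, 5 no longer passed, 6 newly passed and 4 changed sign. The sign changes were all in CD301b against SIRPa and in ligands that never passed: Cd70 gave -0.07 without CD301b replicate 1 and -0.17 without SIRPa replicate 1 (range over left-out libraries -0.17 to 0.99), and Tnfsf13 gave 0.23 without CD301b replicate 3 and 0.15 without SIRPa replicate 1 (range -0.38 to 0.23). The number of ligands called in CD301b against SIRPa was 3 with DESeq2 and 3 in the fit of the 6 libraries, against 1 in the fit of 9, and 1 in every fit without a library. In CD301b against XCR1 it was 6, and 4 to 6 without a library, with 4 without CD301b replicate 4. In SIRPa against XCR1 it was 6, and 6 to 7 without a library. Calls over all genes in CD301b against SIRPa were 660, but 328 without SIRPa replicate 1, 418 without SIRPa replicate 3 and 438 without CD301b replicate 3; the cause was not tested. A minimum count of 50 left 8 ligands, without Cd70 and Tnfsf13. Same-numbered libraries of different populations did not deviate together (r = 0.00305 to 0.0413), so the numbers were not taken to pair them, and not every library was most like its own number. With the replicate number as a block, 1, 5 and 6 ligands were called, Tnfsf10 no longer passing in CD301b against XCR1 (3.28, edgeR adjusted p = 0.115), and it ended no other call. Cd70 and Tnfsf13, which passed in no comparison, had at most 49 counts in a library. Against XCR1, leaving out a library gave Cd70 -0.79 to -0.12 in CD301b and -1.46 to -0.29 in SIRPa.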
